A study of Mus musculus with 4 samples.

Results

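The T cells described here are the barcodes of a dendritic cell sort that carried T cell receptor complex transcripts. A barcode counted as a T cell when it had at least 500 genes, at most 10% mitochondrial UMIs, at least 2 UMIs of Cd3d, Cd3e and Cd3g together, no UMI of Fscn1 and none of Cd79a or Cd79b. UMIs are unique molecular identifiers, each standing for 1 captured RNA molecule. The rule found 396 T cells among 14058 kept barcodes, 204 of 5636 in the MC903 capture (3.62%, 95% exact interval 3.15 to 4.14) and 192 of 8422 in the untreated capture (2.28%, 1.97 to 2.62). The CD3 genes, Fscn1, Cd79a and Cd79b chose the members, so the members were selected on those values, and what follows gives them as a description only.

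T cells read peptides held by MHC molecules through a surface receptor that reaches the membrane only together with the CD3 chains. The coreceptor CD4 marks cells that read MHC class II and that include helper and regulatory cells, and the coreceptor CD8 marks cells that read MHC class I and can become cytotoxic. Skin dendritic cells migrate to the draining lymph node and meet T cells there. Among their signals is OX40L, the product of Tnfsf4, which binds OX40, the product of Tnfrsf4, on activated and regulatory T cells.

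The study took ear-draining lymph nodes at day 5 from Tnfsf4KI/+ mice, heterozygous for a Tnfsf4 allele that reports OX40L as blue fluorescent protein (BFP). In the MC903 group the ears were treated on days 0, 2 and 4 with MC903, a vitamin D analogue (calcipotriol) that inflames mouse skin, and in the untreated group they received nothing. The labels name no vehicle group. Both groups carried the reporter allele and passed the same sort for B220-negative cells with intermediate CD11c and high MHC class II, the gate of migratory dendritic cells, so T cells were not its target. From each group 5000 BFP+ and 7000 BFP- cells were sorted, labelled with separate hashtags and run in 1 capture with the 10x 3′ v3 kit. How many mice went into a pool the labels do not say.

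There was 1 capture per treatment, on its own sequencing lane, so treatment, capture and lane cannot be told apart and no difference between the captures was tested. Intervals below are exact 95% intervals for counting error only. A ratio is called here when the higher group reached 20 CPM (UMIs of a gene per 1000000 UMIs of the group), the fold was at least 1.5 and the interval of the log2 ratio left out 0. Where a gene had no UMI on 1 side, the ratio is a bound computed with 3 UMIs in place of 0 over the group. A lower CPM in a group can mean fewer expressing cells or less RNA in each, and these cannot be told apart in a sum.

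The hashtag oligonucleotides that assign a T cell to the BFP+ or BFP- sort are shown with capitals at the positions where the pair of a capture differ.
MC903 BFP+, hashtag 3: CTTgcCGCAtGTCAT
MC903 BFP-, hashtag 4: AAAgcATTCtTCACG
untreated BFP+, hashtag 1: ACCcACCagTaAGAC
untreated BFP-, hashtag 2: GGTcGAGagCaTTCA
The MC903 pair differed at 12 of 15 positions and the untreated pair at 11 of 15.

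T cell genes that the rule did not use were high in the summed counts of the members. In the MC903 and untreated T cells the alpha chain constant gene Trac had 456 and 511 CPM, the beta chain gene Trbc2 had 1853 and 1768 CPM, and the receptor-proximal kinase Lck had 387 and 375 CPM. Trac was at 3.41 and 10.8 CPM in barcodes with at least 2 Fscn1 UMIs and no CD3 or Cd79 UMI, called dendritic cell (DC) barcodes here (4094 in the MC903 capture, 4241 in the untreated one). Lef1, a transcription factor of naive T cells, had 288 and 269 CPM in T cells against 1.22 and 6.13 CPM in DC barcodes. The adaptor gene Lat had 346 and 280 CPM, and Bcl11b, a factor that keeps T cell identity, had 241 and 252 CPM. Trbc2 was seen in 98.0% of MC903 and 78.1% of untreated T cells. The other genes were seen in fewer, Trac and Lck each in 80.4% and 60.4%, Lef1 in 70.1% and 40.6%, Lat in 77.5% and 49.0% and Bcl11b in 68.1% and 43.8%. Cd3d, Cd3e and Cd3g, which neighbour each other on chromosome 9 (GRCm38, from 44969572 at the start of Cd3g to 45009627 at the end of Cd3e), had 936, 351 and 997 CPM in MC903 T cells and 926, 359 and 1034 CPM in untreated ones.

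Tnfsf4, reporter and erythroid transcripts were at or near 0 UMIs, while B cell transcripts were above their level in DC barcodes. Tnfsf4 had 0 UMIs in MC903 and 2 in untreated T cells, and the BFP reporter transcript 1 and 1, against 13.9 and 10.3 CPM of Tnfsf4 in DC barcodes. The immunoglobulin heavy chain gene Ighm was at 227 and 257 CPM in T cells. The B cell list held 230 and 296 CPM in T cells and 31.6 and 136 CPM in DC barcodes. It held 7482 and 6035 CPM in barcodes with at least 2 Cd79 UMIs and no CD3 or Fscn1 UMI, called B barcodes here. All erythroid markers listed were at 0 UMIs. The median depth of a T cell was 4636 UMIs (range 1139 to 37568) in the MC903 capture and 3317 (785 to 25508) in the untreated one, against 9731 and 2787 in DC barcodes. No doublet caller was run, and of 21 kept barcodes that occur in both captures none was a T cell.

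The untreated members stood apart in the RNA of dendritic cells that they carried. The 12 genes of the DC list other than Fscn1, among them the antigen presentation genes H2-Aa and Cd74 and the chemokine genes Ccl17 and Ccl22, summed to 809 CPM in MC903 T cells and 5948 CPM in untreated ones, against 38313 and 29348 CPM in DC barcodes. Most of this lay in a subset of barcodes. The DC list exceeded 0.5% of UMIs in 2 MC903 T cells (0.980%) and in 62 untreated T cells (32.3%), and 5 and 30 barcodes lay between 0.3% and 1%. The 62 untreated barcodes had a median of 1837 UMIs, 3777 CPM of the T cell identity list and 23259 CPM of the DC list. The other 130 untreated barcodes had a median of 3916 UMIs, 9525 CPM of the identity list and 766 CPM of the DC list, beside 8383 and 707 CPM in the 202 MC903 barcodes under that limit. In the untreated capture 2 barcodes alone held 1134 and 688 of the 4327 DC-list UMIs. Barcodes that met the T cell rule apart from at least 1 Fscn1 UMI numbered 109 and 389, with 21044 and 20938 CPM of the DC list. Those with just 1 Fscn1 UMI, 37 and 77, had 855 and 13169 CPM of it. So in the untreated capture the rule cut through a range of DC RNA content. The 37 MC903 barcodes were close to the 809 CPM of the MC903 T cells. The values of barcodes with at most 0.5% are therefore given beside those of all T cells, a limit chosen after the data were seen. DC genes themselves cannot be read from that set, since they chose it.

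**Figure D1:**
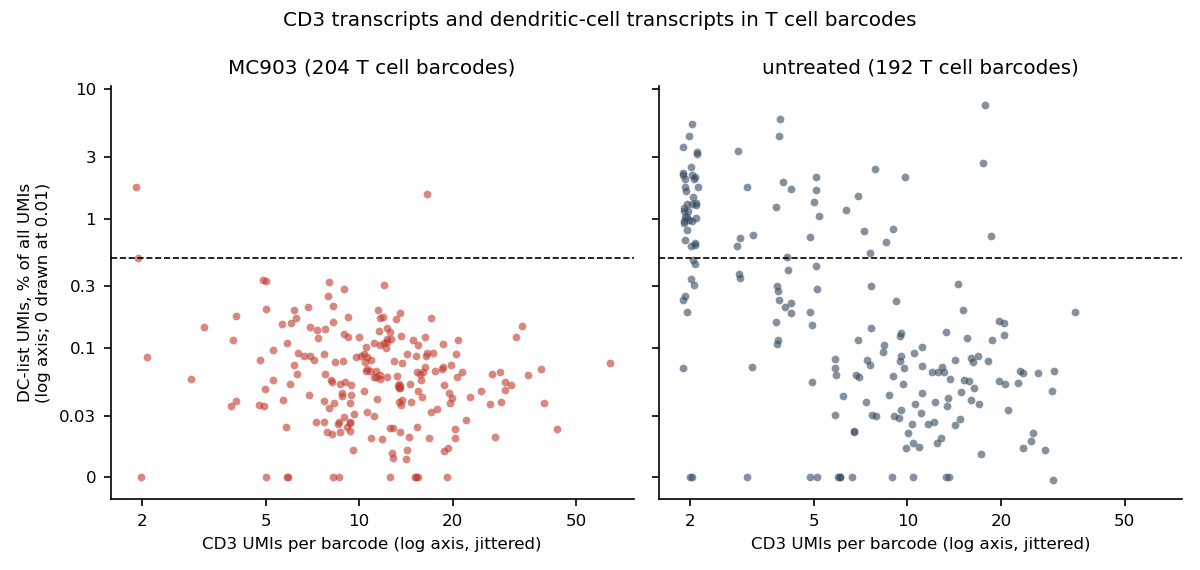
UMIs of the 3 CD3 genes per T cell barcode (x, log axis, points spread sideways for view) against the share of its UMIs from the 12-gene DC list (y, percent, log axis with 0 drawn at 0.01), MC903 left and untreated right, with a dashed line at 0.5%. Above the line lie 2 MC903 and 62 untreated barcodes.

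Members just inside the CD3 limit were unlike the rest in the untreated capture. With 2 to 4 CD3 UMIs there were 10 MC903 T cells (4.90%) and 70 untreated ones (36.5%), and the untreated ones had 4516 CPM of the identity list and 13436 CPM of the DC list. With 5 or more there were 194 and 122, which had 8381 and 8897 CPM of the identity list. Just outside the limits, 8 MC903 and 86 untreated barcodes had 1 CD3 UMI, 37 and 77 had 1 Fscn1 UMI, and 18 and 18 had 1 Cd79 UMI.

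T cells were found in both sorted populations of both captures. A barcode was given to a population when at least 80% of at least 10 hashtag counts were from 1 hashtag. In the MC903 capture T cells made up 60 of 1703 BFP+ barcodes (3.52%, 2.70 to 4.51) and 142 of 3763 BFP- barcodes (3.77%, 3.19 to 4.43), a log2 ratio of -0.10 (-0.56 to 0.35). In the untreated capture they were 41 of 593 BFP+ barcodes (6.91%, 5.01 to 9.26) and 126 of 5720 BFP- barcodes (2.20%, 1.84 to 2.62), a log2 ratio of 1.65 (1.10 to 2.17). Without the barcodes rich in DC RNA the untreated shares were 6.24% and 1.52% (log2 ratio 2.04, 1.44 to 2.61).

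The untreated order rests on how hashtags were read. HTODemux, which fits a cut-off to each hashtag, gave T cells as 60 of 2417 BFP+ (2.48%) and 36 of 907 BFP- barcodes (3.97%) there. The log2 ratio was -0.68 (-1.30 to -0.04). In the MC903 capture HTODemux gave 61 of 1798 (3.39%) and 55 of 2542 (2.16%), a log2 ratio of 0.65 (0.10 to 1.20). So the 2 assignments compare other sets of barcodes. Untreated DC barcodes called BFP+ had a median own-hashtag count of 81 with HTODemux and 287.5 with the dominant hashtag. Hashtags were mixed in 0.980% of MC903 and 13.0% of untreated T cells, and among DC barcodes 2.30% of MC903 and 24.2% of untreated ones. The median count of the own hashtag was 282 in untreated BFP+ and 477.5 in untreated BFP- T cells. A share of T cells in the sort depends on the gate and on the number of dendritic cells in it, and says nothing of T cell numbers in the node.

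**Figure D2:**
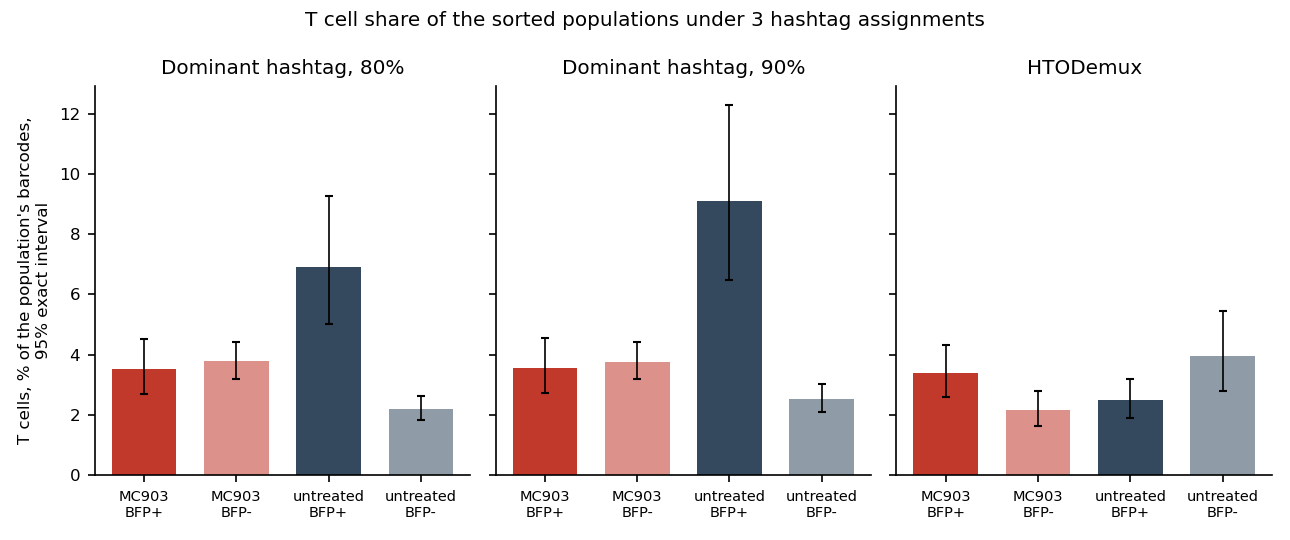
Share of T cells among the barcodes of each sorted population (percent), with the dominant hashtag at 80% and 90% and with HTODemux; bars are shares and lines exact 95% intervals. MC903 bars are red and untreated bars blue, BFP+ dark and BFP- pale. The untreated BFP+ bar is above the BFP- bar with a dominant hashtag (6.91% and 2.20%) and below it with HTODemux (2.48% and 3.97%).

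Cells carrying Cd8 transcripts made up a larger share of the T cells in the MC903 capture, except that the intervals overlap with at most 5% mitochondrial UMIs. T cells with a Cd8a or Cd8b1 UMI and no Cd4 UMI, called Cd8-only, numbered 86 of 204 in the MC903 capture (42.2%, 35.3 to 49.3) and 36 of 192 in the untreated one (18.8%, 13.5 to 25). With a Cd4 UMI and no Cd8 UMI, called Cd4-only, there were 38 (18.6%, 13.5 to 24.7) and 45 (23.4%, 17.6 to 30.1). Both transcripts were seen in 6 and 3 cells, and neither in 74 (36.3%) and 108 (56.3%). At most 0.5% DC RNA left 86 of 202 MC903 cells Cd8-only (42.6%) and 26 of 130 untreated cells (20%, 13.5 to 27.9), and 18.8% and 33.8% Cd4-only. With each of these cells thinned to 1000 UMIs, 28.7% (22.6 to 35.5) and 13.4% (7.995 to 20.6) were Cd8-only, 3 untreated cells being too shallow. With at most 5% mitochondrial UMIs, 11 of 48 MC903 T cells (22.9%, 12.0 to 37.3) and 9 of 63 untreated ones (14.3%, 6.75 to 25.4) were Cd8-only, and these intervals overlap. Cd8b1, the beta chain that pairs with CD8 alpha on conventional CD8 T cells, had 403 and 224 CPM in T cells against 0.818 and 8.13 CPM in DC barcodes. As a background of such a call, B barcodes were Cd8-only in 0.877% and 3.797% of cases, and DC barcodes, some kinds of which express Cd8a, in 9.89% and 11.6%.

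Cd4 was a weaker label than Cd8. It had 56.3 CPM in MC903 and 100 CPM in untreated T cells, and after thinning 8.82% and 5.06% of all T cells were Cd4-only, an order opposite to that of the CPM, so no order was read from the Cd4-only share. Within the MC903 populations 26 of 60 BFP+ T cells (43.3%) and 60 of 142 BFP- T cells (42.3%) were Cd8-only. Within the untreated ones, 9 of 41 BFP+ (22.0%) and 24 of 126 BFP- T cells (19.0%) were, so the shares were close between the gates of a capture and apart between captures.

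**Figure D3:**
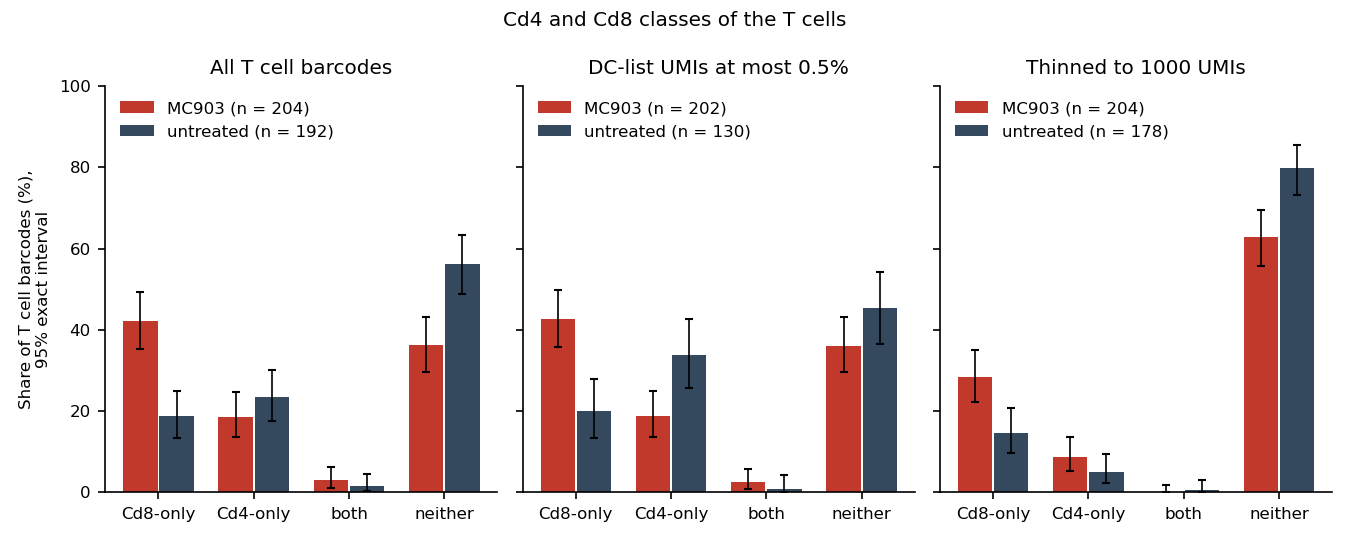
Share of T cells (percent, bars) with exact 95% intervals (lines) in each class of Cd4 and Cd8 transcripts, MC903 red and left, untreated blue and right of each pair. The Cd8-only share is higher in the MC903 capture over all T cells (42.2% and 18.8%), with at most 0.5% DC-list UMIs (42.6% and 20%) and after thinning (28.4% and 14.6%). A limit of 5% mitochondrial UMIs, at which the intervals overlap, is not plotted.

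Cd8-only T cells had more Nkg7 and Ly6c2 and less Cd40lg and Izumo1r than Cd4-only T cells in both captures. Within each capture the classes share mice, sort and lane. Called in both captures were 17 genes higher in Cd8-only T cells (0.341% of 4984 measured) and 70 lower (1.4%). Per capture, 127 genes were higher (2.26%) and 503 lower (8.96%) in the MC903 T cells, and 117 higher (1.97%) and 439 lower (7.41%) in the untreated ones. Trimmed-mean (TMM) scaling moved every log2 ratio up by 0.23 in the MC903 and 0.25 in the untreated capture and gave 38 higher and 38 lower in both, so the surplus of lower genes depends on the scaling. Per capture, TMM gave 284 higher and 266 lower in the MC903 T cells and 269 and 228 in the untreated ones.

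The genes higher in Cd8-only T cells included several of cytotoxic lymphocytes. Nkg7, a cytotoxic granule protein, had 337 UMIs in MC903 Cd8-only cells and 0 in MC903 Cd4-only cells (662 against 0 CPM, a log2 bound of 5.69). Untreated Cd8-only cells had 587 CPM of Nkg7 and untreated Cd4-only cells 32.9 CPM (log2 ratio 4.16, 3.07 to 5.51). Ly6c2, a surface antigen of memory CD8 T cells and monocytes, had 279 CPM in MC903 Cd8-only cells against 0 in Cd4-only cells (bound 4.45). In untreated cells Ly6c2 had 431 against 9.39 CPM (5.52, 3.62 to 8.59). So both genes had no UMI in MC903 Cd4-only cells and a low level in untreated ones.

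Others of this group were lower in level. Klrd1, the CD94 chain of an inhibitory receptor of NK and CD8 T cells, had 159 against 29.9 CPM in MC903 cells (2.41) and 88.3 against 28.2 CPM in untreated cells (1.65). Ctsw, a protease of cytotoxic cells, had 187 against 25.6 CPM (2.87) and 182 against 61.1 CPM (1.57). Ccr9, a homing receptor that gut-bound and naive CD8 T cells carry, had 62.8 against 0 CPM (bound 2.30) and 67.5 against 4.70 CPM (3.85). With at most 0.5% DC RNA, 75 genes were higher (1.34%) and 441 lower (7.88%) in untreated Cd8-only cells, and 15 (0.311%) and 73 (1.51%) in both captures. The remaining named genes were Plac8 (log2 bound 4.20 in MC903 and ratio 4.60 in untreated cells), Lcn4 (3.64 and bound 2.26), Tmem108 (2.05 and 3.47), Fam241a (2.88 and 1.73) and the chemokine gene Xcl1 (bounds 1.38 and 2.88). Xcl1 no longer met the call in untreated cells with at most 0.5% DC RNA. Eomes, a transcription factor of memory CD8 T cells, had 33.4 CPM in MC903 and 52.0 CPM in untreated Cd8-only cells and no UMI in the Cd4-only cells of either.

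Among the genes lower in Cd8-only T cells were some that helper and regulatory cells are known for. Cd40lg, the ligand by which helper T cells license B cells and dendritic cells, had 0 CPM in MC903 Cd8-only against 38.4 CPM in Cd4-only cells (bound -2.70). In untreated cells Cd40lg had 15.6 against 75.1 CPM (-2.27). Izumo1r, the folate receptor FR4 of regulatory and anergic cells, had 39.3 against 188 CPM in MC903 cells (-2.26, -3.10 to -1.46) and 52.0 against 235 CPM in untreated cells (-2.18). Pdcd1, the inhibitory receptor PD-1, had 1.96 against 29.9 CPM (-3.93) and 10.4 against 93.9 CPM (-3.18). These genes were thus lower in Cd8-only than in Cd4-only cells of both captures, though Izumo1r kept 39.3 and 52.0 CPM in Cd8-only cells.

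Cish, a feedback inhibitor of cytokine signalling, had 13.7 against 128 CPM in MC903 cells (-3.22) and 15.6 against 70.5 CPM in untreated cells (-2.18). Ass1, an enzyme of arginine synthesis, had 31.4 against 132 CPM (-2.07) and 20.8 against 164 CPM (-2.98). The others were Slamf1 (-2.29 in MC903 cells and bound -2.52 in untreated cells), Nsd2 (-2.50 and -2.31), Pdlim4 (-2.58, which turned to 1.54 with at most 5% mitochondrial UMIs, and bound -2.18), Psen2 (-2.12 and -2.25) and Klf4 (-1.97 and -1.99). Nsd2 did not meet the call in untreated cells with at most 0.5% DC RNA. Zbtb7b, the transcription factor that sets the CD4 lineage, had no UMI in the Cd8-only cells of either capture, against 25.6 CPM in MC903 and 56.4 CPM in untreated Cd4-only cells.

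**Figure D4:**
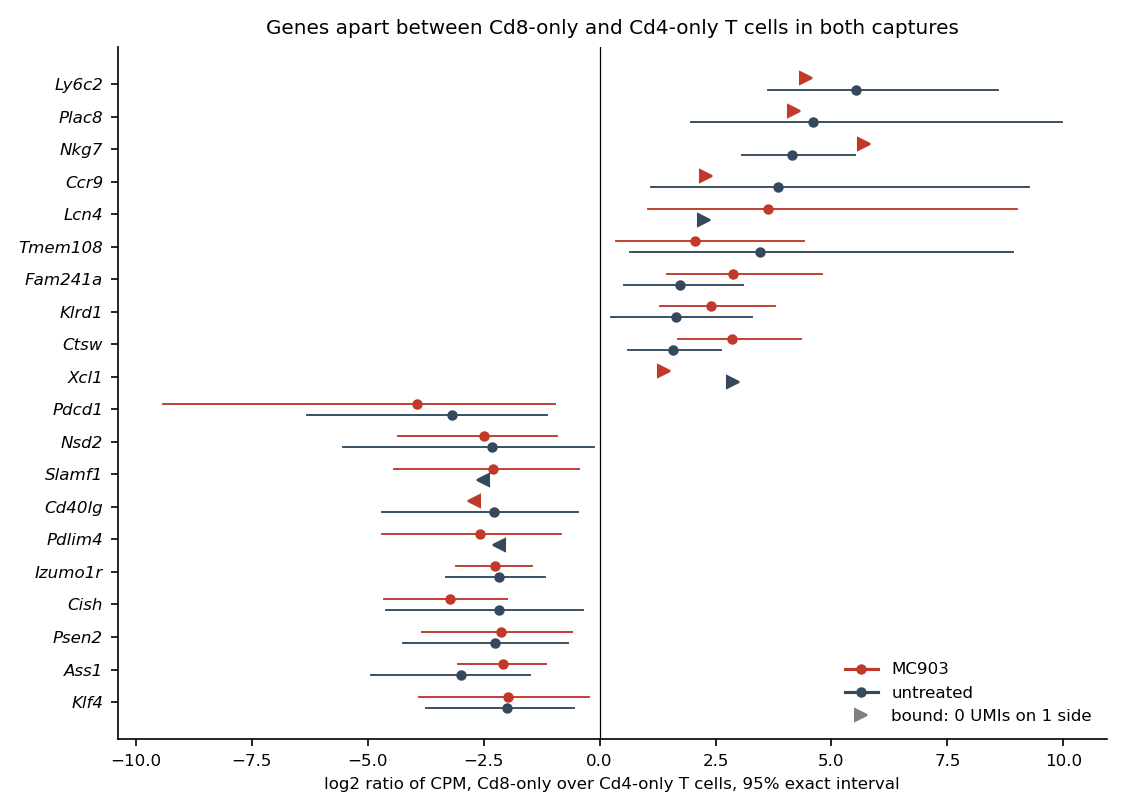
Log2 ratio of CPM in Cd8-only over Cd4-only T cells (x) for the 10 named genes higher and the 10 lower in both captures, MC903 red above untreated blue for each gene; points are ratios, lines exact 95% intervals and triangles bounds where 1 side had no UMI. Nkg7 (bound 5.69 and ratio 4.16) and Ly6c2 (bound 4.45 and ratio 5.52) lie far to the right in both captures.

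Gene lists showed the same split with exceptions. The shares over all measured genes were 2.26% higher and 8.96% lower in the MC903 comparison, and 1.97% and 7.41% in the untreated one. Of 14 regulatory T cell genes, 10 reached 20 CPM in the MC903 comparison and 8 of them were lower in Cd8-only cells and 1 higher (median log2 ratio -2.32, against -0.23 over all genes). In untreated cells 11 were measured, 6 lower and 1 higher (-1.15, against -0.21). Of 14 costimulatory receptor genes 11 were measured in each capture, with 7 lower in each, 0 and 1 higher, and medians of -1.29 and -1.01. Under TMM the lower ones were 7 and 5 of the regulatory and 5 and 7 of the costimulatory genes. Tnfrsf4, which both lists hold, had 7.85 CPM in MC903 Cd8-only cells (4 UMIs) against 388 CPM in Cd4-only cells. The untreated Cd8-only cells had 171 CPM of Tnfrsf4, from 33 UMIs in 4 cells, against 380 CPM in Cd4-only cells.

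Genes of naive and effector cells did not follow 1 direction. Dapl1, a marker of naive and quiescent memory CD8 T cells, was higher in Cd8-only cells, with 454 against 179 CPM in MC903 and 613 against 150 CPM in untreated cells. Igfbp4, another transcript of naive T cells, was lower, with 163 against 307 CPM and 83.1 against 268 CPM. The naive list had a median log2 ratio of 0.27 in MC903 cells (6 higher and 1 lower of 15) and of -0.14 in untreated cells (2 higher and 4 lower of 15). The effector and memory list had medians of 1.08 (7 higher and 2 lower of 15) and -0.39 (4 and 4 of 15). Over all measured genes 2.26% were higher and 8.96% lower in MC903 cells, and 1.97% and 7.41% in untreated cells.

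Between the captures, MC903 T cells had more of the survival gene Bcl2 and less of several costimulatory receptor genes than untreated T cells. Over all T cells 235 genes were higher (4.21% of 5579 measured) and 664 lower (11.9%). With at most 0.5% DC RNA, 247 were higher (4.49% of 5502) and 510 lower (9.27%), of which 178 and 384 were called in both sets. The median log2 ratio over all genes was -0.10 in each. TMM moved every ratio up by 0.14 and gave 375 higher and 451 lower (45.4% of calls higher, against 26.1% without it). Leaving out the 10% of T cells with the most UMIs left 113 higher, 65 of them among the 235.

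Bcl2, which blocks apoptosis and is kept high by interleukin-7 in resting T cells, had 333 CPM in MC903 and 151 CPM in untreated T cells (log2 ratio 1.14, 0.83 to 1.46). It was seen in 131 and 53 cells. With at most 0.5% DC RNA it had 334 and 159 CPM (1.07), and it was higher in each class, by 0.92 in Cd8-only, 1.18 in Cd4-only and 0.93 in the cells with neither. DC barcodes held 2.50 and 7.39 CPM of it. Dtx1, a ubiquitin ligase linked to Notch and to T cell anergy, was also higher in each class and was seen in 95 MC903 and 20 untreated T cells. It is named here after its values were seen. In the low DC RNA set Dtx1 had 163 and 24.8 CPM in Cd8-only (2.72), 119 and 43.1 CPM in Cd4-only (1.47) and 128 and 37.1 CPM in the remaining cells (1.79).

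In that set, 117 genes were higher (2.25% of 5205) and 213 lower (4.09%) within Cd8-only cells, 279 (4.69% of 5952) and 485 (8.15%) within Cd4-only cells, and 153 (2.58% of 5921) and 296 (5.0%) within the cells with neither. Of these, 16 genes were higher in MC903 T cells in all 3 classes (0.355% of 4513 measured in each) and 13 were lower (0.288%). Beside Bcl2 and Dtx1, the 16 included the salivary gland transcripts Bpifa2, Smr3a and Amy1 and cell cycle genes such as Mki67, Top2a and Ube2c. Some rested on few cells, and 1 cell held 94.1% of the Ube2c UMIs of MC903 Cd8-only cells. In MC903 Cd4-only cells 1 cell held 97.2% of them. Among the 13 were Cd28, Icos and Ikzf2, chosen here after their values were seen. Over all T cells 9 and 20 genes were called in the 3 classes (0.192% and 0.426% of 4698). Cd28, the receptor of the main costimulatory signal, had 186 CPM in MC903 and 349 CPM in untreated T cells (-0.91, -1.18 to -0.64). In the low DC RNA set it was lower by class, at -1.06 in Cd8-only, -1.10 in Cd4-only and -0.67 in the remaining cells. Icos, a CD28 relative of activated and follicular helper cells, had 222 and 467 CPM (-1.08, -1.32 to -0.84) and by class -1.72, -1.36 and -0.87. So both were lower in each of the 3 classes of that set. Over all T cells the cells with neither lost both calls, at -0.39 (-0.87 to 0.08) for Cd28 and -0.51 (-0.84 to -0.17) for Icos. Ikzf2, which encodes the factor Helios of regulatory cells, had 126 and 246 CPM (-0.97), with 71.0% of its untreated Cd8-only UMIs from 1 cell.

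Many costimulatory and regulatory genes were lower over all T cells, and the lists share Tnfrsf4, Ctla4, Tnfrsf9, Tnfrsf18 and Tigit. The shares over all measured genes were 4.21% higher and 11.9% lower, and 4.49% and 9.27% in the low DC RNA set. Of 11 costimulatory genes measured, 7 were lower and 0 higher (median log2 ratio -0.85), and 8 and 0 in the low DC RNA set (-1.11). Of 12 regulatory genes measured, 8 were lower and 0 higher (-0.76), and 11 and 0 in the low DC RNA set (-1.05). Under TMM 6 of each were lower over all T cells. The cells with neither coreceptor transcript differed less, with 0 of 11 costimulatory genes lower (median -0.34) and 1 of 13 regulatory genes lower (-0.25), against a background of 151 genes higher (2.54% of 5954) and 390 lower (6.55%) in that class. In the low DC RNA set 3 of 10 costimulatory genes were lower there, and 4 of 13 regulatory genes were lower and 1 was higher. Over all genes measured in that class of that set 2.58% were higher and 5.0% lower. The captures also differ in their share of Cd8-only cells, which held less of these lists than Cd4-only cells, and its part in the values over all T cells was not tested. Ctla4, which competes with CD28 for its ligands, had 106 CPM in MC903 and 202 CPM in untreated T cells (-0.94). Tnfrsf9, the receptor 4-1BB, had 22.5 and 79.7 CPM (-1.82). Foxp3, the factor that defines regulatory T cells, had 30.3 and 41.2 CPM (-0.44, -1.19 to 0.31) and was not called over all T cells.

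Some activation and follicular helper genes were also lower. Nr4a1 and Nr4a3, nuclear receptors that receptor signalling turns on within hours, had 51.1 and 48.5 CPM in MC903 against 146 and 150 CPM in untreated T cells (-1.51 and -1.63). Maf, a factor of helper and regulatory cells, had 75.4 and 187 CPM (-1.31). Bcl6, the factor of follicular helper cells, had 2.60 and 33.0 CPM (-3.67), seen in 3 MC903 and 13 untreated cells. Of 8 activation genes measured, 5 were lower and 0 higher over all T cells (median -1.30), and 6 and 0 in the low DC RNA set (-1.15). Of 7 genes of the type 2 and follicular helper list, 5 were lower and 0 higher (-1.31). The shares over all measured genes were 4.21% higher and 11.9% lower, and 4.49% and 9.27% in the low DC RNA set. Under TMM 5 of 8 activation genes were lower and 1 was higher, and 4 of 6 of the type 2 and follicular helper list were lower and 0 higher. Within the cells with neither coreceptor transcript, 1 of 9 activation genes was lower (median -0.25), and of 6 genes of the type 2 and follicular helper list 2 were higher and 0 lower (0.06). Over all genes measured in that class 2.54% were higher and 6.55% lower. Gata3, the factor of type 2 helper cells, had 74.5 and 83.9 CPM (-0.17) and was not called.

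Several memory genes were lower, and here DC RNA moved with the values. Of 15 effector and memory genes measured, 2 were higher and 8 lower (median -0.66), and in the low DC RNA set 2 and 5 of 14 (-0.42). All measured genes were higher in 4.21% and lower in 11.9% of cases, and in 4.49% and 9.27% in the low DC RNA set. Cd44, a receptor raised on memory T cells, had 44.2 CPM in MC903 and 128 CPM in untreated T cells (-1.53), and -1.47 in the low DC RNA set. S100a4, a calcium-binding protein of memory and effector cells, had 308 and 871 CPM (-1.50), and -1.28 in the low DC RNA set, beside 3364 and 2803 CPM in DC barcodes. Ccl5, a chemokine of memory CD8 T cells that DC barcodes held at 7412 and 11334 CPM, had 360 and 1694 CPM (-2.24). In the low DC RNA set its ratio was -1.33, and in the Cd8-only cells of that set it was higher in the MC903 capture (0.67), while in the Cd4-only cells it was lower (-2.75). Ccr7, the receptor for entry into lymph nodes, had 394 and 660 CPM (-0.74) and was not called in the low DC RNA set (-0.41). The DC genes H2-Aa and Cd74 were lower over all T cells, with 82.3 against 932 CPM (-3.50) and 230 against 2170 CPM (-3.24), and had 67.1 against 80.4 CPM and 179 against 220 CPM in the set that was chosen for low DC RNA.

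**Figure D5:**
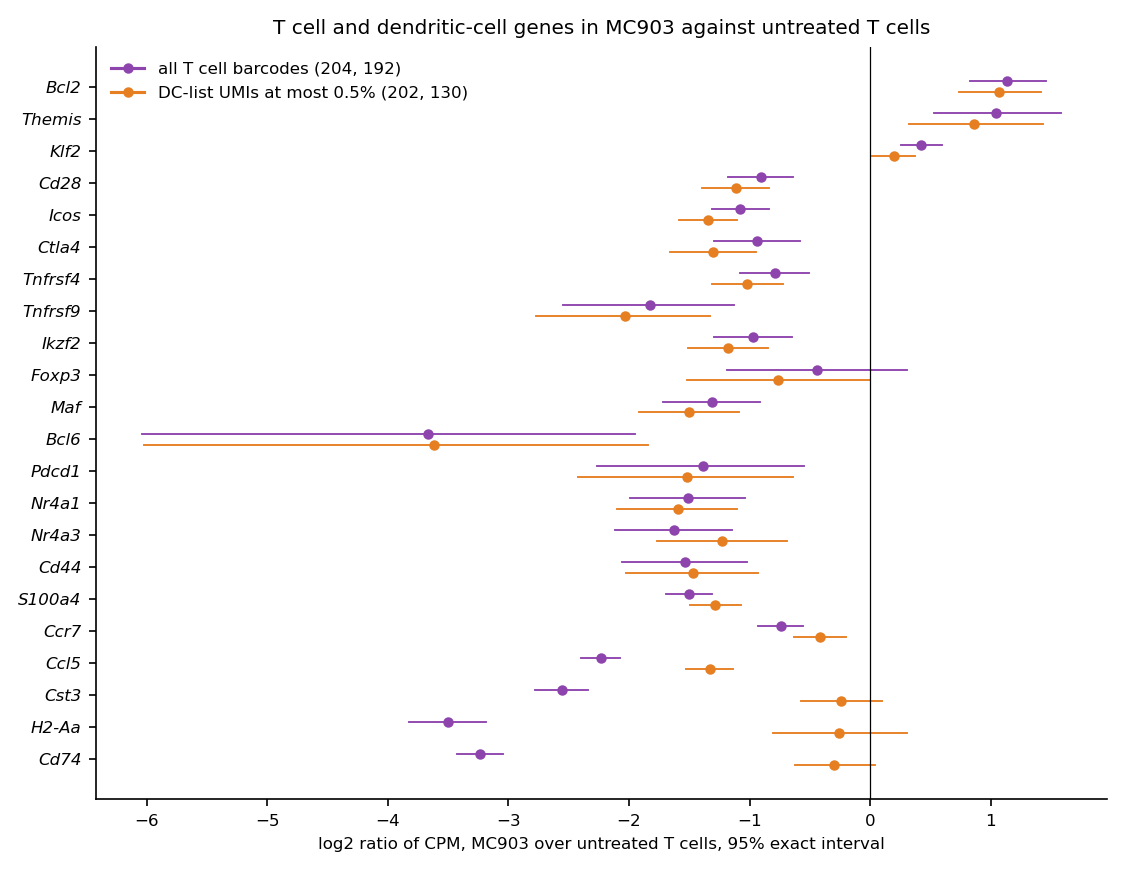
Log2 ratio of CPM in MC903 over untreated T cells (x) for genes of the lists, over all T cell barcodes (purple, 204 and 192) and over barcodes with at most 0.5% DC-list UMIs (orange, 202 and 130); points are ratios and lines exact 95% intervals. Bcl2 is on the right and Cd28, Icos and Ctla4 on the left of 0 in both sets, while Cst3, H2-Aa and Cd74, members of the list that chose the orange set, lie near 0 only there.

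Over all T cells genes of naive T cells and of T cell identity were called about as often as all measured genes. Among all 5579 measured genes 4.21% were higher and 11.9% lower. In the low DC RNA set these shares were 4.49% and 9.27%. Of 15 naive and recirculation genes measured, 1 was higher and 2 were lower (median -0.03), and in the low DC RNA set 0 and 3 (-0.13). In the cells with neither coreceptor transcript of that set 0 were higher and 8 of 14 lower (-0.64). Among all genes measured in those cells 2.58% were higher and 5.0% lower. Lef1 had 288 CPM in MC903 and 269 CPM in untreated T cells (0.09) and Tcf7 224 and 230 CPM (-0.03), both factors of naive and stem-like T cells. S1pr1, the receptor that lets T cells leave the node, had 139 and 236 CPM (-0.76) and was lower, also in the low DC RNA set (-0.99). Of 20 identity genes 1 was higher, Themis, a signalling protein of T cell development, at 116 and 56.4 CPM (1.04), and 2 were lower. Interferon response genes had 3 higher and 0 lower of 12 (median 0.33).

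The largest ratios were those of salivary gland and cell cycle transcripts. By the bound of their intervals nearest 0, the 10 named higher genes were Bpifa2, Smr3a, Amy1, Pip, H1f5, Cdca8, Nusap1, Ccnb1, Rrm2 and H2ac8. The first 4 are secretory products of salivary or lacrimal glands. Bpifa2 had 253 CPM in MC903 T cells (34 cells) and 1.37 CPM in untreated ones (1 cell), a log2 ratio of 7.52 (5.03 to 12.83). It was also at 1659 and 75.9 CPM in DC barcodes and at 309 and 1.09 CPM in B barcodes. Smr3a had 185 and 4.12 CPM (5.48), Amy1 45.0 and 0 CPM (bound 3.45) and Pip 22.5 and 0 CPM (bound 2.45). So the T cell, DC and B barcodes of the MC903 capture all held Bpifa2, and where it came from was not tested.

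The cell cycle genes rested on few cells. Of 12 proliferation genes measured, 10 were higher and 0 lower (median 2.01, and 2.76 in the low DC RNA set). Over all measured genes 4.21% were higher and 11.9% lower. Mki67, a protein of dividing cells, had 78.8 CPM in MC903 and 15.1 CPM in untreated T cells (2.38), from 11 and 8 cells, and 37.4% of the MC903 UMIs came from 1 cell. Rrm2, a subunit of the enzyme that makes deoxynucleotides, had 76.2 and 9.62 CPM (2.99) from 11 and 4 cells. The histone genes H1f5 (4.29) and H2ac8 (3.66), the mitotic genes Cdca8 (4.22) and Nusap1 (bound 2.66) and the cyclin Ccnb1 (bound 2.45) were seen in 6 to 10 MC903 cells and 0 to 2 untreated cells each. T cells with an Mki67 UMI were 5.39% of MC903 and 4.17% of untreated T cells, with medians of 13561 and 6133 UMIs. The part of this depth in the ratios was not tested. Without the 10% of T cells with the most UMIs the ratio of Cdca8 turned to -1.70.

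The 10 named lower genes were mostly genes of myeloid cells. Aif1 (-6.52), Il1b (-4.75), Plbd1 (bound -3.89), Ccl4 (bound -3.84), Fxyd2 (bound -3.67), Cd209d (bound -4.54), Cd209a (bound -3.78), H2-Aa (-3.50), Cd74 (-3.24) and the neuropeptide gene Gal (bound -5.10) made up the list. In untreated T cells 88.6% of Cd209d UMIs and 88.5% of Cd209a UMIs were in 1 cell, and all 65 Gal UMIs were in 1 cell. In the low DC RNA set Il1b (5.23 against 26.8 CPM, -2.36) and Gal still met the call and the other 8 did not.

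T cells with a UMI of Foxp3 or of Trdc were few. Foxp3-carrying cells were 11 of 204 MC903 T cells (5.39%, 2.72 to 9.44) and 19 of 192 untreated ones (9.90%, 6.06 to 15.0), and after thinning to 1000 UMIs 3.43% (1.39 to 6.94) and 3.93% (1.60 to 7.93). DC barcodes held Foxp3 in 0.147% and 0.377% of cases before thinning, at median depths of 9731 and 2787 UMIs. The Foxp3-carrying T cells were rich in genes of regulatory cells, with Tnfrsf4 at 1017 and 1478 CPM, Ikzf2 at 858 and 1409 CPM and Ctla4 at 597 and 1368 CPM. In the Cd4-only and neither classes without Foxp3 or Trdc, Tnfrsf4 had 171 and 250 CPM and Ctla4 95.2 and 108 CPM. None of the 11 MC903 and 1 of the 19 untreated Foxp3-carrying cells was Cd8-only. By hashtag, 5 and 6 of the MC903 cells were BFP+ and BFP-, and 6 and 13 of the untreated ones.

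Cells with the gamma-delta receptor gene Trdc were 17 MC903 (8.33%, 4.93 to 13.0) and 11 untreated T cells (5.73%, 2.89 to 10.0), of which 7 untreated ones were over the limit of DC RNA. After thinning, 6.86% (3.802 to 11.2) and 2.81% (0.918 to 6.43) of T cells held it, and before thinning DC barcodes held it in 0.147% and 0.778% of cases and B barcodes in 0 of 342 and 2 of 237. The Trdc-carrying T cells had 418 and 722 CPM of Cd163l1, a scavenger receptor of gamma-delta T cells that make interleukin-17, and 329 and 120 CPM of Il17a itself. Of the Il17a UMIs in MC903 T cells 80.8% were in 1 cell. The Trdc-carrying T cells held no UMI of Foxp3, Ctla4 or Tnfrsf4. Their S100a4 was at 1127 and 2207 CPM, beside 3364 and 2803 CPM in DC barcodes. By hashtag 1 MC903 cell was BFP+ and 16 were BFP-, and 2 and 8 of the untreated ones.

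Tnfrsf4, the receptor of the ligand that the reporter marks, was in a minority of T cells. It had 170 CPM in MC903 and 294 CPM in untreated T cells (-0.79, -1.08 to -0.51), and 171 and 347 CPM in the low DC RNA set (-1.02). It was seen in 24 (11.8%) and 51 cells (26.6%). Thinned to 1000 UMIs, 8.82% (5.31 to 13.6) and 11.2% (7.0 to 16.8) of T cells held it, and these shares overlap within their intervals. B barcodes, which should lack it, held it in 0.880% and 1.32% after thinning, and DC barcodes in 14.4% and 14.02%. By class in the low DC RNA set, the ratio was -4.70 in Cd8-only cells, 0.00 in Cd4-only cells and -0.73 in the remaining cells. The Cd8-only ratio rested on 4 MC903 cells and on few untreated cells.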

How the data were processed

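Single-cell RNA and hashtag libraries of 2 captures (1 MC903, 1 untreated; 4 deposited samples) were analysed. The authors deposited raw UMI counts for genes and hashtags in each barcode. Per the file headers, Cell Ranger 3.1.0 wrote them, and the submitters' processing notes name the mm10 (GRCm38) build. Of 15836 deposited barcodes (6316 MC903, 9520 untreated) 14058 were kept. T cells held 1154368 UMIs in the MC903 and 727489 in the untreated capture. UMIs were summed per group and scaled to CPM, and ratios of 2 Poisson counts were given exact intervals (Python 3.11.15, scipy 1.17.1), tested on simulated data. With 1 sample per group no test was made. Hashtags were also called with HTODemux (Seurat 5.3.0, R 4.3.3, positive quantile 0.99), and TMM factors came from edgeR 4.0.16. Named genes are the 10 each way with the interval bound nearest 0 farthest from it (captures) or the largest smaller ratio of the 2 captures (classes), beside genes of 20 lists. Members and lists were chosen with earlier results of these data known. Of 22631 gene IDs 22590 were in GENCODE M21, from which positions were taken. The gamma-delta genes listed as Tcrg-C were found in the files as Trgc1, Trgc2 and Trgc4. Free RNA was judged from DC and B barcodes.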

Additional observations from a re-analysis of the deposited data

Results flagged for a closer look

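The ratio of the T cell share in BFP+ over BFP- barcodes was -0.10 on the log2 scale in the MC903 capture and 1.65 in the untreated capture. The intervals do not overlap, but the difference between captures was not tested. HTODemux, which assigned other sets of barcodes, turned both directions.

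Between Cd8-only and Cd4-only T cells, 11 genes were called in opposite directions in the MC903 and untreated captures, 7 under TMM scaling and 6 with at most 0.5% DC-list UMIs. None of these differences was tested, and 1 of the 11 is an unnamed gene model or of a gene class left out of naming. The log2 ratio of Cd8-only over Cd4-only was 1.88 in MC903 and -1.25 in untreated T cells for Mef2d, a transcription factor. It was 0.74 and -0.59 for Foxp1, a factor of naive T cells. For Cxcl10 it was -1.86 (a bound, from 0 UMIs against 5) and 2.42, and for Cxcl16 -3.44 and 1.82, both chemokine genes. It was -0.71 and 0.98 for Cycs, -0.70 and 1.44 for Cdk4, -0.82 and 1.20 for Supt16, -0.60 and 0.61 for Hnrnpa1, -0.76 and 1.69 for Rsl1d1, and -0.87 and 2.06 for Cd74. With at most 0.5% DC-list UMIs the untreated ratio of Cd74 turned to -1.28, though Cd74 is on the list that chose that set. In the untreated capture the DC list was also higher in Cd8-only T cells, with 6 of 10 measured genes called and a median of 1.24. In the MC903 capture 0 of 8 were higher and 1 was lower (0.10). Over all measured genes 1.97% were higher in the untreated capture, and 2.26% were higher and 8.96% lower in the MC903 capture.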

How the results depend on the processing

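No paired analysis was possible because each treatment has 1 capture. Of 280 alternative values of single genes and classes, 243 lay within the interval of the value given above, 35 moved without turning, and 2 turned: Cdca8 (-1.70 without the 10% of T cells with the most UMIs) and Pdlim4 in MC903 cells (1.54 with at most 5% mitochondrial UMIs). Of 82 alternatives of shares and counts, 53 stayed within range. At most 5% mitochondrial UMIs, which kept 48 MC903 and 63 untreated T cells, gave T cell shares of 1.18% and 1.13%, Cd8-only shares of 22.9% and 14.3%, 432 genes higher in MC903 T cells, and 5 higher and 15 lower in Cd8-only cells of both captures. For the untreated capture the T cell share was 1.75% with at least 3 CD3 UMIs, 1.45% with at least 5 and 1.54% with at most 0.5% DC-list UMIs. At least 5 CD3 UMIs gave 26.2% Cd8-only and 1.43% of BFP- barcodes, and the DC-list limit gave 1.52% of BFP- barcodes. Thinning gave 28.4% Cd8-only in MC903 T cells, and thinning within the DC-list limit 28.7% and 13.4% in MC903 and untreated T cells. HTODemux gave 2.16% of MC903 BFP-, 2.48% of untreated BFP+ and 3.97% of untreated BFP- barcodes. Genes higher in MC903 T cells numbered 113 without the deepest 10%, 375 under TMM, 109 at 50 CPM and 434 by 1.5-fold alone, and genes lower 375 at 50 CPM and 1000 by fold alone. Genes higher in Cd8-only cells of both captures numbered 38 under TMM and 128 by fold alone, and genes lower 44 without the deepest 10%, 38 under TMM and 543 by fold alone. TMM turned the median of the naive list between captures from -0.03 to 0.10, and in untreated Cd8-only over Cd4-only cells from -0.14 to 0.11. The limits of at least 5 CD3 UMIs, of DC-list UMIs and of fold alone were chosen after seeing the data. Depth limits the Cd4 and Cd8 labels, since thinning to 1000 UMIs lowered both shares.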
